A study of Homo sapiens with 8 samples.

Results

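The leukocyte integrins and ICAM ligands followed here are 9 genes of the 18132 that the arrays measured with a probe set of 1 gene. They comprise 5 α chains (ITGAM, ITGAX, ITGAL, ITGA4 and ITGA5), 2 β chains (ITGB2 and ITGB1) and 2 immunoglobulin-type ligands (ICAM1 and ICAM3). The genes were chosen by name, and where several probe sets read 1 gene, the brightest on average stands for it. All 9 were bright enough to enter the 12845 tested genes. NB4 is a human acute promyelocytic leukaemia line, blocked at the promyelocyte stage, that matures towards granulocytes when differentiation is induced. The cells carried lentivirus, at a multiplicity of infection of 10, with a scrambled control or with 1 of 3 hairpins against the cell cycle kinase CDK2 (shCDK2 #1, shCDK2 #3 and shCDK2 #10). Total RNA was taken after 2 days, which the submitters call early differentiation, or after 5 days, which they call late. Each construct and day had 1 Affymetrix array, so the hairpins, or the days of a hairpin, were the only repeats. All 8 arrays therefore come from transduced cells of 1 line, and no untransduced culture was analysed here. RNA was measured in whole cultures, in which fewer cells of a type and less RNA per cell cannot be told apart.

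Integrins are surface receptors made of an α and a β chain that bind matrix proteins or proteins on other cells. On leukocytes the β2 chain, ITGB2 (CD18), pairs with ITGAL (CD11a) to form LFA-1, with ITGAM (CD11b) to form Mac-1 or complement receptor 3, and with ITGAX (CD11c) to form p150,95. The β1 chain, ITGB1 (CD29), pairs with ITGA4 in VLA-4, a receptor for VCAM1 and fibronectin, and with ITGA5 in the classical fibronectin receptor. ICAM1 is a ligand of LFA-1 and Mac-1 induced by inflammatory signals, and ICAM3 is a ligand of LFA-1 found on resting leukocytes. CD11b appears on the surface as promyelocytes mature and is the usual marker of differentiation in this line.

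The promoters of ITGAM and ICAM1 are printed because these genes had the widest ranges of the 9 over the arrays. The bases are the 250 upstream of the RefSeq start, from the GRCh38.p14 table, 5′ to 3′ on the strand of the gene, with motif matches in capitals. The ITGAM stretch is chr16:31259725-31259974 on the plus strand, and the ICAM1 stretch is chr19:10270870-10271119 on the plus strand.
ITGAM: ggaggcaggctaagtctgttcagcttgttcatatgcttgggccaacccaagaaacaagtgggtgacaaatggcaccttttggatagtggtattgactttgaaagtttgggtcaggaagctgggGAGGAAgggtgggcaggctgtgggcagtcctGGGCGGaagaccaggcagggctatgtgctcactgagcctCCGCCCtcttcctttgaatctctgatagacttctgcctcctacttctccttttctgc
ICAM1: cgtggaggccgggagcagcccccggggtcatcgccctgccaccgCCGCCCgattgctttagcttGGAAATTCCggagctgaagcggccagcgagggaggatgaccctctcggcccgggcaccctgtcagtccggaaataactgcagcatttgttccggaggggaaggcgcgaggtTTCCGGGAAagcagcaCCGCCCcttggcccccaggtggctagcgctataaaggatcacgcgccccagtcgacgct
The motifs searched, on both strands, were the PU.1/ETS core GAGGAA, the GC box GGGCGG, the kappa B site GGAANTTCC and the GAS element TTCNNNGAA. Counted back from the start, the ITGAM stretch held a PU.1/ETS core at -127 to -122, a GC box at -96 to -91 and a reversed GC box at -57 to -52. The ICAM1 stretch held reversed GC boxes at -206 to -201 and at -59 to -54, the kappa B match GGAAATTCC at -186 to -178 and the GAS match TTCCGGGAA at -75 to -67, and none of these overlapped. Among 35116 promoters of the same length, 23.6% held the PU.1/ETS core, 42.6% the GC box, 0.826% the kappa B site and 6.57% the GAS element. Entries were found for 6 of the 9 genes, and ITGAX, ITGAL and ITGB2 had none. Of the others, 1 ITGB1 entry held a PU.1/ETS core and 3 GC boxes, and 1 ICAM3 entry held a PU.1/ETS core and 2 GC boxes. The remaining entries of these genes held no match. ITGA5 held 1 GC box, and ITGA4 held no match. A match is a string of letters, and binding was not measured.

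CDK2, the targeted gene, was read beside the labels. After 2 days it read 9.10 log2 in scramble, 7.78 in #1, 9.03 in #3 and 7.54 in #10, so that #3 stood at 95% of scramble where #1 and #10 stood at 39.9% and 34.0%. At day 5 it was 8.19 in scramble, already below the day 2 scramble, and 7.89, 7.72 and 8.08 in #1, #3 and #10, which are 81.1%, 72.3% and 92.9% of that scramble. CDK2 signal cannot tell a wrong label from a weak knockdown or a change of scramble between days, and none of these was tested. The #3 array of day 2 and the scramble array of day 5 are called the array labelled #3 at day 2 and the array labelled scramble at day 5. The fits are also given without these 2 arrays where an estimate remains. Every difference from scramble at day 5 uses the array labelled scramble, which has no second array of its day to stand in for it. Array medians lay between 6.30 and 6.43 log2. Of 11 promyelocyte markers, 10 were measured, and 9 of these lay above the filter of 5.83 log2 in every array. Passing this filter does not show expression, since 4 of 10 fibroblast and epithelial markers did so too. MPO lay between 13.4 and 14.4 log2, whereas ELANE lay between 5.83 and 6.35.

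The question set by the design is how each integrin chain and ligand differed between the CDK2 hairpins and scramble, early and late. The pattern that recurs among the 9 genes is a division by array rather than by arm. ITGAM, ITGAX, ITGB2, ITGB1, ICAM1 and ICAM3 each had their 3 highest signals in #10 at day 2, #10 at day 5 and #3 at day 5, a pattern chosen after the values were seen, which 12.5% of all tested genes showed. ITGAM ranged 19.5-fold over the arrays and ICAM1 27.7-fold, while ITGAL and ITGA5 ranged 1.77-fold and 1.84-fold on the probe sets used. With all arrays and after Benjamini-Hochberg adjustment over all tested genes, limma called none of the 9 in any of the 8 comparisons.

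**Figure D1:**
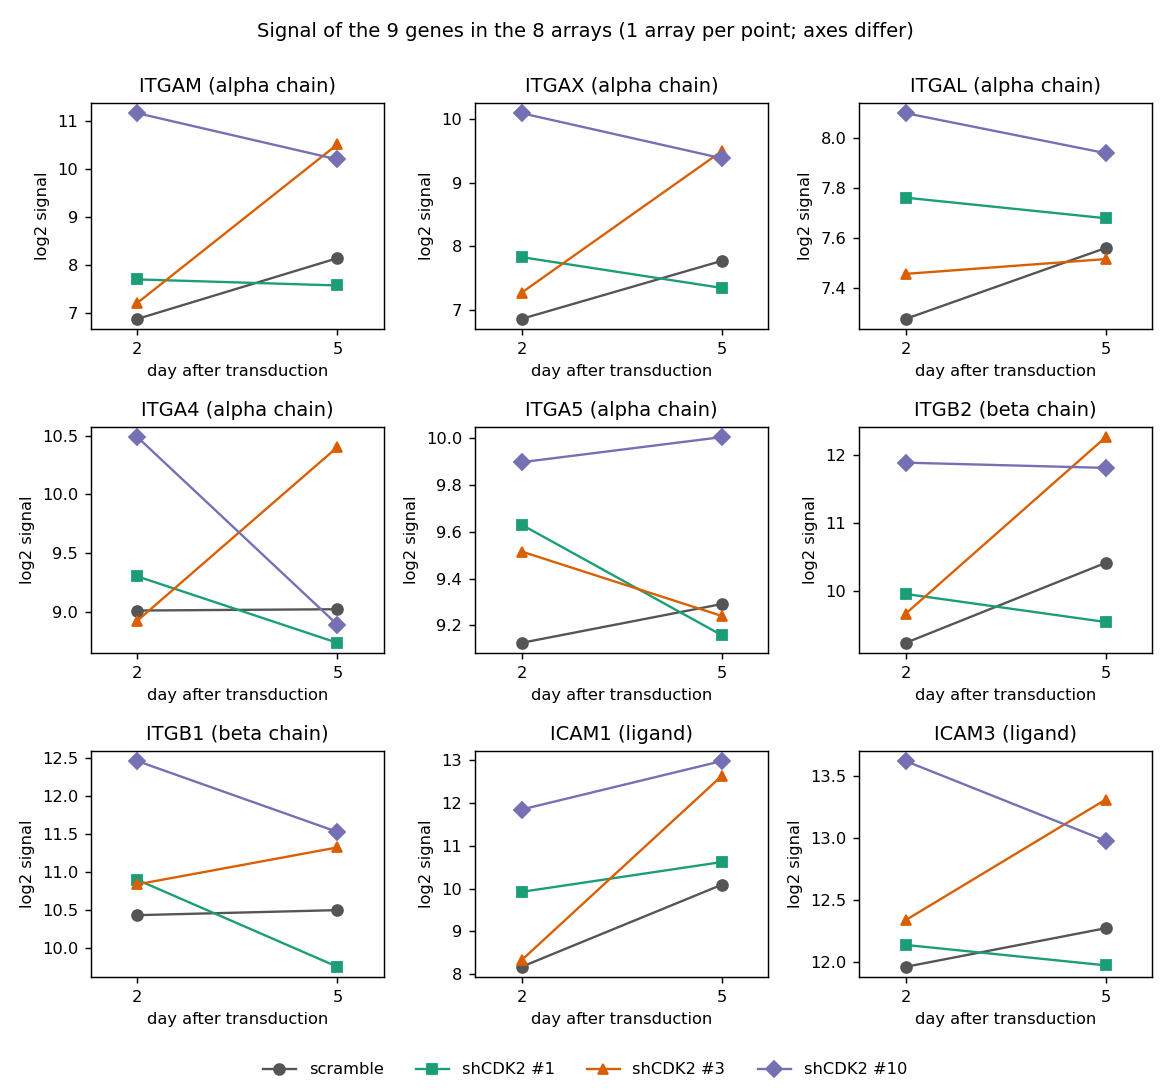
Deposited log2 signal of each of the 9 genes in each of the 8 arrays, by construct and day; each point is 1 array and there are no error bars. ITGAM, ITGAX, ITGB2, ITGB1, ICAM1 and ICAM3 have their highest points in #10 on both days and in #3 at day 5, whereas ITGAL and ITGA5 stay within a 1.84-fold range.

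ITGAM, the CD11b chain and the differentiation marker, had log2 signals at day 2 of 6.88 in scramble, 7.70 in #1, 7.21 in the array labelled #3 and 11.16 in #10. At day 5 the signals were 8.14 in the array labelled scramble, 7.57 in #1, 10.51 in #3 and 10.20 in #10. The #10 arrays and the #3 array of day 5 thus stood apart from the other 5, the highest of which was the array labelled scramble at day 5. Against scramble of the same day, #10 was 19.5-fold higher at day 2 and 4.16-fold at day 5, and #3 was 1.26-fold and then 5.18-fold higher. Hairpin #1 was 1.77-fold higher at day 2 and at day 5 stood at 0.674 of scramble. From day 2 to day 5, ITGAM differed by 3.30 log2 in #3, by 1.27 between the scramble arrays, by -0.13 in #1 and by -0.96 in #10.

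ITGAX, the CD11c chain, is the gene next to ITGAM on chromosome 16, with ITGAD following. Its signals were 6.86 in scramble, 7.83 in #1, 7.27 in the array labelled #3 and 10.10 in #10 at day 2. At day 5 they were 7.77 in the array labelled scramble, 7.35 in #1, 9.50 in #3 and 9.39 in #10. The constructs had the same order as for ITGAM on each day, and #10 was 9.42-fold above scramble at day 2. ITGAD, the CD11d chain beside it, varied far less, from 5.68 in #3 at day 5 to 6.51 in #1 at day 5.

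ITGAL, the CD11a chain of LFA-1, lay between 7.28 in scramble at day 2 and 8.10 in #10 at day 2. Both #10 arrays (8.10 and 7.94) were above the other 6, the highest of which was 7.76 in #1 at day 2. At day 5, #1 and #3 were within 0.12 log2 of the array labelled scramble. ITGAL was the only one of the 9 with both #1 arrays above both scramble arrays, which 11.4% of tested genes showed.

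ITGA4, the α4 chain of VLA-4, had signals of 9.01 in scramble, 9.30 in #1, 8.92 in the array labelled #3 and 10.49 in #10 at day 2. At day 5 it had 9.02 in the array labelled scramble, 8.73 in #1, 10.40 in #3 and 8.89 in #10. Its high arrays were 1 of #10 and 1 of #3. On this probe set #10 at day 5 lay below scramble, unlike in the other 8 genes. The difference between days was -1.60 log2 in #10 and 1.48 in #3, against 0.01 between the scramble arrays.

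ITGA5, the α5 chain of the fibronectin receptor, ranged from 9.12 in scramble at day 2 to 10.00 in #10 at day 5. It was highest in the 2 #10 arrays (9.90 and 10.00), and #3 at day 5 (9.24) lay just under the array labelled scramble (9.29), an order that turned with median centring, which moved the median difference of all genes in that array by 0.12 log2.

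ITGB2, the β chain shared by CD11a, CD11b and CD11c, had signals at day 2 of 9.25 in scramble, 9.96 in #1, 9.68 in the array labelled #3 and 11.88 in #10. At day 5 these were 10.42 in the array labelled scramble, 9.55 in #1, 12.26 in #3 and 11.81 in #10. The array labelled scramble at day 5 was 1.17 log2 above scramble at day 2 and above all #1 and #3 arrays except #3 at day 5. Against it, #1 at day 5 stood at 0.549 and #3 was 3.57-fold higher.

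ITGB1, the β1 chain, had signals at day 2 of 10.44 in scramble, 10.90 in #1, 10.84 in the array labelled #3 and 12.46 in #10. At day 5 it had 10.50 in the array labelled scramble, 9.76 in #1, 11.33 in #3 and 11.53 in #10. The 2 scramble arrays differed by 0.07 log2, the lowest array was #1 at day 5, and #10 was 4.07-fold and 2.04-fold above scramble on the 2 days.

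ICAM1, the inducible ligand, had signals at day 2 of 8.18 in scramble, 9.92 in #1, 8.33 in the array labelled #3 and 11.84 in #10. At day 5 they were 10.09 in the array labelled scramble, 10.62 in #1, 12.62 in #3 and 12.97 in #10. On this probe set it was the only one of the 9 genes above scramble of the same day in all 6 hairpin arrays, and its other 2 probe sets differed from scramble by -0.48 and -0.09 log2 in the array labelled #3 at day 2. Hairpin #1 was 3.35-fold above scramble at day 2 and 1.44-fold at day 5, #10 was 12.7-fold and 7.36-fold above it, and #3 was 1.11-fold and 5.79-fold above it. Every construct was higher at day 5 than at day 2, by 0.69 log2 in #1, 1.13 in #10, 1.91 between the scramble arrays and 4.29 in #3.

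ICAM3, the ligand of resting leukocytes, ranged from 11.96 in scramble at day 2 to 13.62 in #10 at day 2. At day 2 #1 had 12.14 and the array labelled #3 had 12.34. At day 5 the array labelled scramble had 12.27, #1 had 11.97, #3 had 13.31 and #10 had 12.98. The 3 high arrays were again #10 on both days and #3 at day 5.

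**Figure D2:**
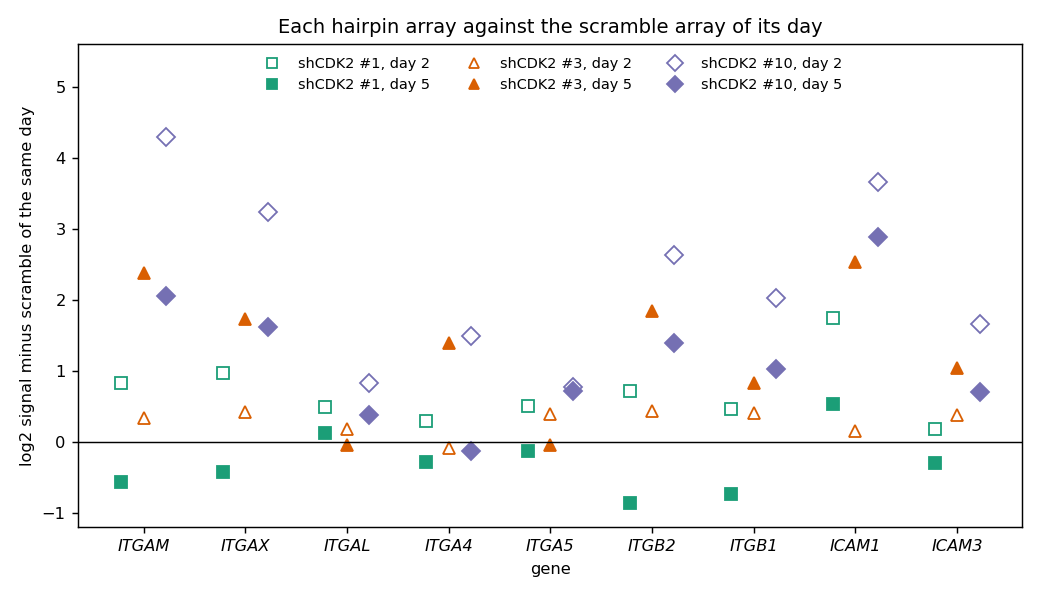
Log2 signal of each hairpin array minus the scramble array of the same day, for the 9 genes, with each point 1 array (open at day 2, filled at day 5) and no error bars. Differences of #10 at day 2 reach 4.29 for ITGAM, and those of #1 at day 5 are below 0 for 7 of the 9 genes, ICAM1 (0.53) and ITGAL (0.12) being the exceptions.

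Over the 3 hairpins together, each of the 9 genes had a mean above scramble at both days, and no gene passed the test. At day 2 the difference for ITGAM was 1.81 log2 (SE 1.66, 95% interval -2.09 to 5.71, adjusted p = 1.00 by limma), and that for ICAM1 was 1.85 (SE 1.34, adjusted p = 1.00). At day 5 ITGAM stood at 1.29 (SE 1.66, adjusted p = 0.913), ITGB2 at 0.79 (SE 1.16, adjusted p = 0.914) and ICAM1 at 1.98 (SE 1.34, adjusted p = 0.913). These values moved with single arrays. Without #10 the day 2 difference was 0.58 for ITGAM and 0.95 for ICAM1, and without the array labelled #3 it was 2.55 and 2.70, with adjusted p = 1.00 by limma in each case. At day 5, ITGAM was 2.21 without #1 (adjusted p = 0.541) and 0.74 without #3, and ITGB2 was 1.61 and 0.26. The median of the 9 genes was 0.96 at day 2 and 0.48 at day 5, beside 0.02 and -0.09 over all tested genes. In these comparisons 0% of the 12845 genes were called, and 442 at day 2 and 171 at day 5 had an unadjusted p under 0.05, none of the 9 among them. All 3 day 2 hairpin arrays lay above scramble for 8 of the 9 genes, ITGA4 being the exception, and for 25.6% of all tested genes. The sign of ITGA4 in the array labelled #3 turned with quantile normalization and on some other probe sets. At day 5 all 3 hairpin arrays lay above scramble for ICAM1 alone of the 9, and for 16.0% of tested genes.

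The change of the hairpin arm from day 2 to day 5 was 2.04 log2 for ICAM1 (SE 0.95, unadjusted p = 0.067, adjusted p = 1.00 by limma), 0.74 for ITGAM (SE 1.17) and -0.53 for ITGB1 (SE 0.59), both with adjusted p = 1.00. The difference between the days in the effect of the hairpins was -0.53 for ITGAM (SE 2.34) and 0.13 for ICAM1 (SE 1.89), also with adjusted p = 1.00. No tested gene was called in either comparison (0%), and 260 and 164 genes had an unadjusted p under 0.05.

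Hairpin by hairpin, with the 2 days as repeats, the estimates for #10 were the largest for each of the 9 genes. ICAM1 was 3.27 log2 above scramble (SE 0.73, 95% interval 1.56 to 4.98, 9.65-fold, adjusted p = 0.071 by limma) and ITGAM 3.17 above it (SE 0.85, interval 1.19 to 5.15, 9.01-fold, adjusted p = 0.097). ITGAX stood at 2.42 (SE 0.63, adjusted p = 0.092), ITGB2 at 2.01 (SE 0.63, adjusted p = 0.134), ITGB1 at 1.52 (SE 0.39, adjusted p = 0.087) and ICAM3 at 1.18 (SE 0.35, adjusted p = 0.120). The smaller differences were 0.74 for ITGA5 (SE 0.22, adjusted p = 0.116), 0.60 for ITGAL (SE 0.19, adjusted p = 0.135) and 0.67 for ITGA4 (SE 0.60, adjusted p = 0.607). For #10 limma called 258 genes, 217 higher and 41 lower, which is 2.01% of those tested, and none of the 9. An unadjusted p under 0.05 was reached by 8 of the 9, all but ITGA4, and by 20.2% of all tested genes. Their median difference was 1.52 against -0.09 over all tested genes. Both #10 arrays lay above both scramble arrays for the same 8 genes, and for 21.2% of tested genes.

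Hairpin #3 gave 1.35 log2 for ITGAM (SE 0.85, interval -0.63 to 3.33, adjusted p = 0.648 by limma), 1.34 for ICAM1 (SE 0.73, adjusted p = 0.609) and 1.13 for ITGB2 (SE 0.63, adjusted p = 0.612), each the mean of a small difference at day 2 and a larger one at day 5. The 9 genes had a median of 0.71 beside -0.07 over all tested genes, none was called, and 4 genes (0.0311%) were called in all. ITGB1 and ICAM3 had both #3 arrays above both scramble arrays, which 15.8% of tested genes had. Hairpin #1 gave differences between -0.14 for ITGB1 and 1.14 for ICAM1 (SE 0.73, interval -0.58 to 2.85), with adjusted p = 1.00 for all 9, 0% of tested genes called and 171 at an unadjusted p under 0.05. The ICAM1 value lay at the 99.99th percentile of the differences of all tested genes in #1. These comparisons share the scramble arrays.

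Hairpin #10 was also set against #1, a difference whose estimate does not draw on the scramble levels, although its error uses the spread of all 8 arrays. The labels do not give the hairpin sequences. ITGAM was 3.04 log2 higher in #10 (SE 0.85, interval 1.07 to 5.02, adjusted p = 0.160 by limma), ITGAX 2.15 (SE 0.63, adjusted p = 0.170), ICAM1 2.13 (SE 0.73, adjusted p = 0.226), ITGB2 2.09 (SE 0.63, adjusted p = 0.180) and ITGB1 1.67 (SE 0.39, interval 0.76 to 2.57, adjusted p = 0.110). ITGA4 (0.67, interval -0.72 to 2.07) and ITGAL (0.30, interval -0.14 to 0.74) had intervals that include 0. None of the 9 was among the 42 called genes (0.327%), of which 41 were higher in #10. An unadjusted p under 0.05 was found for 7 of the 9 and for 15.8% of tested genes.

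**Figure D3:**
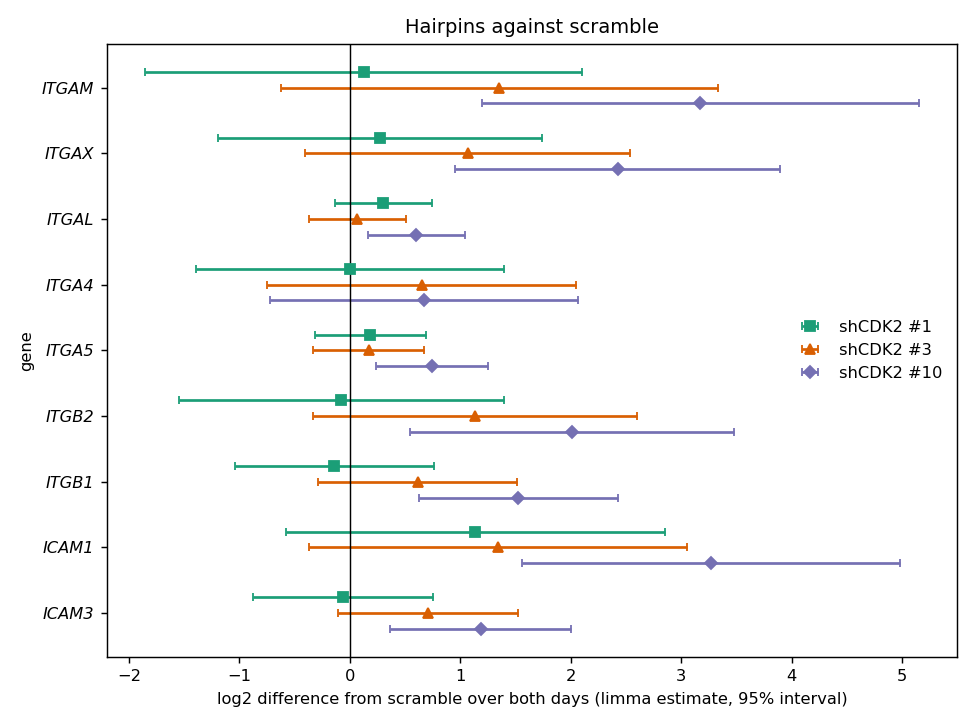
limma estimate of the log2 difference from scramble over both days for each hairpin and gene, with bars giving the 95% interval, from 2 arrays per construct. The intervals of #10 lie above 0 for all genes but ITGA4 before adjustment over the genes tested, while those of #1 and #3 include 0 throughout.

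Most calls for #10 appeared when #3 was not in the fit as a pair of arrays. Leaving out the array labelled #3 at day 2, the #3 array of day 5 or both gave the same #10 values, since a lone #3 array adds nothing to the spread. These calls therefore do not single out the array labelled #3 at day 2. The estimates for #10 were kept and their spread was lower. ICAM1 (adjusted p = 0.011 by limma), ITGAM (0.027), ITGAX (0.029), ITGB2 (0.039), ITGB1 (0.044) and ICAM3 (0.046) then rose in #10 against scramble, 6 of the 9, while the share of all tested genes that was called went from 2.01% to 7.47%, which is 960 genes. Against #1, ICAM1 (adjusted p = 0.027), ITGAM (0.038), ITGB2 (0.045), ITGB1 (0.046) and ITGAX (0.047) were then higher in #10, 5 of the 9 beside 4.76% of tested genes. For #3 itself, without the array labelled #3 at day 2 only day 5 remained, and ICAM1 was called (2.87 log2, adjusted p = 0.040) beside 1.66% of tested genes. ITGAM was 2.98 there (adjusted p = 0.084). Without #3 at day 5, ICAM1 stood at -0.18 and ITGAM at -0.27 in #3. That fit set the array labelled #3 at day 2 against scramble of both days, with the day term from scramble, #1 and #10. Against scramble of day 2 alone, this array was higher by 0.15 for ICAM1 and by 0.33 for ITGAM.

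Leaving out the array labelled scramble at day 5, or scramble at day 2, left all 9 genes without a call for #3 or #10 against scramble and for #10 against #1, with ITGAM in #10 at 3.44 log2 (adjusted p = 0.300 by limma) without the former. The array labelled scramble at day 5 and the array labelled #3 at day 2 were also both left out, a setting added after the values were seen. With 1 residual degree of freedom, the differences were larger. Scramble then remained only at day 2 and #3 only at day 5, so they shared no day. The day term came from #1 and #10 alone, which for ITGAM was -0.13 and -0.96 log2, against 1.27 between the scramble arrays. The #3 values of this setting therefore cannot separate the hairpin from a change between days that differs by construct. In #3, ITGAM was 4.18, ICAM1 3.53, ITGB2 3.25, ITGAX 3.23, ITGB1 1.93 and ICAM3 1.76, all 6 called (adjusted p from 0.026 to 0.048) beside 4.31% of tested genes. In #10, ITGAL (0.80, adjusted p = 0.034) was called with the same 6 beside 16.0% of tested genes. Leaving out both #1 arrays, 2.76% of tested genes and 3 of the 9 were called in #10 against scramble, namely ICAM1 (adjusted p = 0.021), ITGAX (0.047) and ITGB1 (0.047). Without #10 at day 5, which left 1 array of #10, ITGAM stood at 4.39 log2 and ITGAX at 3.22 in #10. Without #10 at day 2, again with 1 array of #10, ITGAM stood at 1.95, ITGAX at 1.63 and ICAM1 at 2.69.

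The 9 genes had 32 probe sets, 27 of them above the filter, and these did not all move together. All 3 probe sets of ITGAM were higher in #10 than in scramble, by 2.98 to 4.29 log2 at day 2 and by 0.95 to 2.06 at day 5, and all 3 of ICAM1 were higher by 2.69 to 3.66 and by 2.63 to 3.01. ITGB1 had 3 that were higher by 2.02 to 2.08 at day 2 and 2 that stayed within 0.21. ITGAX rested on 1 probe set. Its other 3 differed in #10 by 0.04 and -0.29, 0.39 and 0.84, and 0.10 and -0.05 log2 at day 2 and day 5. ICAM3 rested on 1 of 3 in the same way, the other 2 differing by 0.21 and -0.07 and by -0.01 and -0.12. For ITGAL a second probe set was higher in #10 by 1.22 and 0.83, and the remaining pair were lower in both #10 arrays. That second probe set was highest in #10 at day 2 (7.35), #3 at day 5 (7.04) and #10 at day 5 (6.73). It differed from scramble by 1.13 in #3 at day 5, and the remaining pair by -0.56 and -0.50. The small range of ITGAL thus depended on the probe set. ITGA4 had 3 probe sets higher in #10 at day 2 by 1.41 to 1.68. In #10 at day 5 these differed by -0.13, 0.33 and 0.06, and the remaining pair by -0.38 and -0.58. In the array labelled #3 at day 2 the same 3 differed by -0.09, 0.34 and 0.46, and the remaining pair by -0.16 and 0.06. ITGA5 had 3 of 4 higher in #10 on both days, and ITGB2 had only 1 probe set. When all probe sets of a gene were averaged, the #10 difference of ITGAX was 0.74 log2 in place of 2.42 and that of ICAM3 0.40 in place of 1.18.

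**Figure D4:**
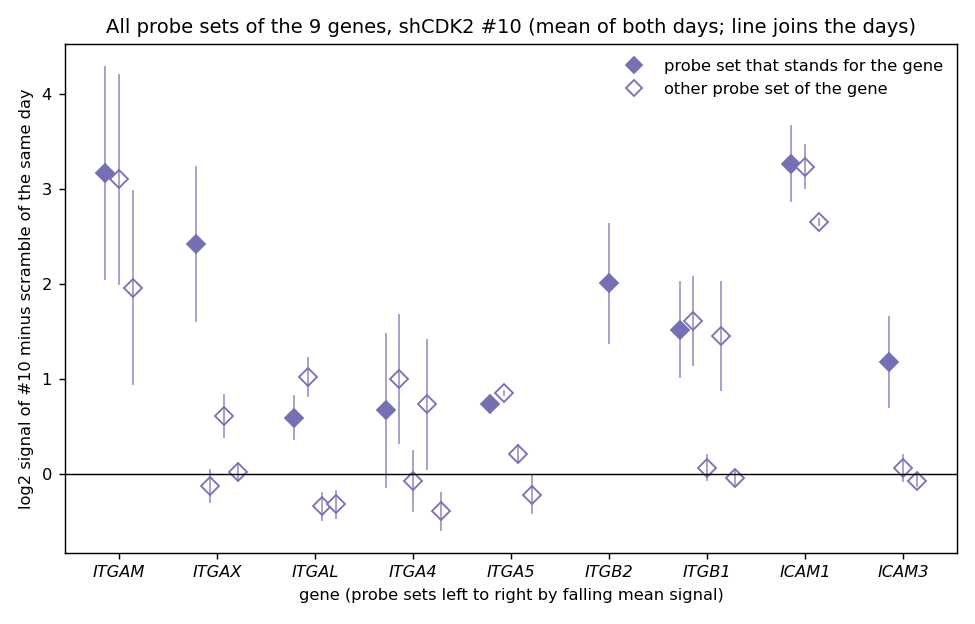
Log2 difference of #10 from scramble for all 32 probe sets of the 9 genes, ordered within a gene by falling mean signal. Diamonds give the mean of both days, the line joins the values of the 2 days, and filled diamonds mark the probe set that stands for the gene; ITGAM and ICAM1 have every probe set above 0, and ITGAX and ICAM3 each have 1 probe set above 1 log2 beside others that are lower, the next for ITGAX at 0.62.

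The genes whose pattern was most like that of ITGAM over the 8 arrays, by Pearson's r and other than the 9, were RESF1 (r = 0.997), TAPBP (0.994), ATP6V0A1 (0.994), SELPLG (0.993) and GATA2 (0.991). Among the 9, r with ITGAM was 0.994 for ITGAX, 0.975 for ITGB2, 0.966 for ICAM3, 0.893 for ICAM1, 0.837 for ITGB1, 0.757 for ITGA4, 0.692 for ITGAL and 0.578 for ITGA5. The arrays fell into 3 high and 5 low ones, and r mostly measures that division, so it is given as a ranking with no test. SELPLG, the selectin ligand PSGL-1 through which leukocytes roll, was 8.0 in scramble and 8.72 in #10 at day 2, and 8.20, 8.66 and 8.63 in the array labelled scramble, #3 and #10 at day 5.

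The other genes of integrin adhesion were grouped in lists, to be read against all tested genes in #10, of which 38.7% had a higher estimate than in scramble and 2.01% were called. Of 13 other integrin chains tested, 5 had higher and 8 lower estimates in #10 against scramble (median -0.06, beside -0.09 over all tested genes), and 1, ITGAE, was called. ITGAE, the CD103 chain that pairs with β7, fell by 1.00 log2 in #10 (SE 0.18, adjusted p = 0.046 by limma), with 10.61 in scramble and 9.49 in #10 at day 2, and 10.51 and 9.63 at day 5. ITGAV, the αv chain, was 5.80 in scramble and 7.96 in #10 at day 2, and 6.46, 8.03 and 8.41 in the array labelled scramble, #3 and #10 at day 5 (2.06 in #10, adjusted p = 0.077). ITGA6, a laminin receptor chain, and ITGA2B, the platelet αIIb chain, had differences in #10 of 1.28 (adjusted p = 0.135) and 0.97 (adjusted p = 0.149).

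Of 9 other ligands tested, 5 were higher and 4 lower in #10 (median 0.65) and none was called. SPP1, the secreted ligand osteopontin, had 7.65 in scramble, 8.60 in #1, 8.67 in the array labelled #3 and 12.82 in #10 at day 2, and 8.73 in the array labelled scramble, 8.56 in #1, 14.19 in #3 and 14.71 in #10 at day 5. Its 3 high arrays were those of ITGAM, and its difference in #10 was 5.57 log2 (SE 1.09, adjusted p = 0.051). Complement C3, whose fragment iC3b binds Mac-1, and fibronectin, FN1, were high at day 5 and not at day 2. C3 was 11.44 in #10 and 10.18 in #3 against 7.49 in the array labelled scramble, and FN1 was 9.40 in #10 and 6.85 in #3 against 6.11. ICAM4, which lies beside ICAM1 on chromosome 19, was highest in #10 at day 2 (9.48, against 7.05 in scramble) and 7.68 in #10 at day 5, whereas ICAM5, the next gene, lay between 5.75 and 6.40 in all arrays.

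Inside the cell, the activation and adhesion machinery (talins, kindlins, RAP1 and adaptors) gave 18 higher and 12 lower of 30 in #10 (median 0.22) with none called. FYB1 and SKAP2, partner adaptors of β2 integrin activation, had differences of 1.70 (adjusted p = 0.144) and 0.99 (adjusted p = 0.094), LIMS1 of the focal adhesion 1.23 and the kinase SRC 0.90. Of 13 selectins and surface partners, 10 were higher and 3 lower in #10 (median 0.58). PLAUR, the urokinase receptor and a lateral partner of Mac-1, rose in #10 by 2.42 log2 (SE 0.42, adjusted p = 0.044), from 8.93 to 11.07 at day 2 and from 9.26 to 11.97 at day 5. The tetraspanin CD9 (2.93, adjusted p = 0.0504), the hyaluronan receptor CD44 (1.76, adjusted p = 0.091) and CD99 (0.96, adjusted p = 0.176) did not pass. In #3 and in #10 against #1, none of these lists had a called gene.

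Of 25 granulocyte maturation genes, 23 were measured and 15 were tested. In #10, 11 were higher and 4 lower (median 0.42), with 2 called, beside 38.7% higher and 2.01% called over all tested genes. LTF, LCN2, CXCR1 and FCGR3B were among those whose mean was under the filter. So were MMP8, at 7.84 in #10 at day 5 and at most 4.36 elsewhere, and S100A12. The latter was 6.47 and 6.17 in #3 and #10 at day 5 and between 5.53 and 5.74 elsewhere. CEBPE was among the lower ones (-0.52, adjusted p = 0.550 by limma). CAMP, the cathelicidin of secondary granules, rose by 1.07 log2 (SE 0.18, adjusted p = 0.043 by limma) and MMP9, the gelatinase of tertiary granules, by 2.61 (SE 0.47, adjusted p = 0.046). CR1, complement receptor 1, had 6.20 in scramble and 10.07 in #10 at day 2 and 5.96, 10.03 and 8.88 in the array labelled scramble, #3 and #10 at day 5 (3.40 in #10, adjusted p = 0.073). FPR1 and S100A9 had differences of 1.52 and 1.65 (adjusted p = 0.095 and 0.235).

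Some markers of other cell types moved with some of the high arrays. Of 10 monocyte and macrophage markers, 9 were measured, and their median was 7.92 in #3 and 7.49 in #10 at day 5 and between 5.19 and 5.50 in the other 6 arrays. CD14 was 8.43 and 10.65 in these 2 arrays against 5.15 in the array labelled scramble, and CD163 was 7.92 and 10.27 against 4.86. In #10 at day 2, where ITGAM and ITGAX were highest, the monocyte median was 5.46, CD14 was 5.76 and CD163 was 4.70, under the filter, while FCN1 was 9.57 against 7.96 in scramble, CD68 8.28 against 7.25 and CSF1R 7.68 against 7.10. FCN1 was 9.73 in #3 and 7.49 in #10 at day 5, against 8.74 in the array labelled scramble. The log2 of the list's summed signal was 9.46 to 9.95 in scramble and #1, 9.64 in the array labelled #3 at day 2, 10.52 in #10 at day 2, and 11.16 and 12.09 in #3 and #10 at day 5. CD68, a macrophage lysosomal protein, was called higher in #10 (1.29, adjusted p = 0.049 by limma). Among 9 lymphoid markers measured, CD3D, a T cell receptor chain, rose in #10 (adjusted p = 0.013 by limma), with 8.81 in scramble and 11.27 in #10 at day 2 and 8.82 and 10.85 at day 5, while CD3E, CD3G, CD2 and CD8A stayed under 6.50. NKG7, of cytotoxic lymphocytes, was 9.31 in scramble and 10.45 in #10 at day 2 and 9.99 and 10.52 at day 5 (0.83 in #10, not called). Most of the lymphoid list did not rise: of 8 tested, 3 were higher and 5 lower in #10 (median -0.06). Of 7 erythroid and megakaryocyte markers measured, PPBP was 13.48 in #10 at day 5 and at most 4.89 elsewhere, and PF4 at most 6.94. Of the 5 tested in that list, 2 were higher and 3 lower in #10 (median -0.08). The 10 fibroblast and epithelial markers had a summed log2 signal between 9.34 and 9.68. The part of these cells in the integrin and ICAM values was not tested.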

How the data were processed

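The submitters' processing notes name Partek, with no version. The deposited values, 49395 probe sets on each array, were read as log2 from their range and used without further scaling. Their normalization by the authors is not given in the sources used here. Per the labels, total RNA was extracted with Trizol and biotin-labelled for Affymetrix arrays.

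The platform annotation tied 44994 probe sets to a single gene, which gave 18132 genes. A gene entered the tests if its mean exceeded 5.83 log2, the 40th percentile over probe sets, and 12845 did. They were fitted with limma 3.58.1 in R 4.3.3 (eBayes, two-sided), and calls were made at a Benjamini-Hochberg adjusted p under 0.05. One fit used a mean for each arm and day, with the hairpins as repeats, so a single scramble array is taken to vary like the hairpin arrays (4 residual degrees of freedom, prior 3.13). The other was additive in construct and day (residual degrees of freedom 3, prior 4.54). No label says whether the arrays come from independent cultures, and the p-values reflect only how these arrays vary, which may be technical. The number of arrays limits the precision. The fits were also run on simulated data, with the same spread for every gene and equal shifts in all arrays of a group. Such data do not cover hairpins that differ or labels that may be wrong.

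The 9 genes and all lists were chosen with earlier results of these data known. Named were the 9 genes, CDK2, up to 4 members of each adhesion and maturation list with the largest mean difference over the 6 hairpin arrays, and the 5 genes most correlated with ITGAM. Called members of those lists and the genes singled out by value (among them CAMP, LTF, LCN2, CEBPE, ICAM5, ITGAD, CD68, FCN1, CD3D, NKG7 and PPBP) were named after their values were seen. Alternatives were quantile normalization, median centring, averaged probe sets, other filters, a trended prior and leaving out arrays.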

Additional observations from a re-analysis of the deposited data

How the results depend on the processing

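Among 51 values of the 9 genes and 853 alternatives of them, 763 kept their direction and their side of the threshold, 64 kept the direction and passed it, and 26 reversed. The count for #10 against scramble was 258. It was 82 with median centring, 131 with the filter at the 60th percentile, 2056 without the array labelled #3 at day 2 and the array labelled scramble at day 5 together (chosen after seeing the data), and 0 to 960 with an array or hairpin left out. Of the called genes 84.1% were higher as deposited, 78.5% of 363 with quantile normalization and 97.6% of 82 with median centring. For #3 the count of 4 became 0 with median centring, the mean of probe sets or the 60th percentile, 9 with a trended prior, 553 without both arrays, and 0 to 213 leave-one-out. For #10 against #1 the count of 42 became 0 with median centring or the 60th percentile, 19 with the mean of probe sets, 71 with a trended prior, 1536 without both arrays, and 0 to 612 leave-one-out. In the other 5 comparisons limma called 0 genes under every alternative run. The cause of these shifts was not tested.

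Reversed values were ITGA5 in #3 with the mean of probe sets (-0.041) and ITGAM in the hairpins at day 5 against day 2 without both arrays (-0.0028). The other reversals came from leaving out arrays. For ITGAM and ICAM1 in #3, the array of day 2 that remained still read above scramble of day 2 on the probe sets used. For #3 the ranges were -0.27 to 2.98 for ITGAM, -0.091 to 2.23 for ITGAX, -0.10 to 0.24 for ITGAL, -0.45 to 1.75 for ITGA4, -0.020 to 0.36 for ITGA5, -0.045 to 2.31 for ITGB2 and -0.18 to 2.87 for ICAM1. ITGA4 ranged from -0.28 to 1.63 in #10 and against #1, and at day 5 ITGA4 from -0.21 to 0.63 and ITGA5 from -0.092 to 0.33. Day 5 against day 2 gave -0.55 to 1.97 for ITGAM and -1.04 to 0.027 for ITGB1, and the difference between days -1.81 to 0.71 for ITGAM and -1.0 to 1.03 for ICAM1. Deviations of the same hairpin on the 2 days correlated at 0.72 for #1, -0.23 for #3 and 0.43 for #10. With hairpin as a replicate block, the count of called genes was 0 in both comparisons of days.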
